A study of Mus musculus with 8 samples.

Results

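The genes described here encode the IκB kinases, their relatives IKKε and TBK1, and the adaptor proteins that hold them, as measured in lung neutrophils of mice with and without pneumonia. The 8 genes were Ikbke, Tbk1, Chuk, Ikbkb, Ikbkg, Tank, Azi2 and Tbkbp1. They were chosen by function, with earlier results of these data known. Each had 1 row among the 24625 rows of the array table, found through its RefSeq accession. Mice with a wild type genotype, labelled as 6 to 12 weeks old, were given Streptococcus pneumoniae (SP) or only its vehicle, phosphate-buffered saline (PBS), by the airway. The left lung was instilled with a volume of 2.3 µl for each g that the mouse weighed. Per the study's methods the mice were of the C57BL/6J strain and the bacteria were of a serotype 19 stock. After 24 h the lungs were digested, and cells that carried Ly6G, a surface protein of mouse neutrophils, were pulled out with magnetic beads. RNA of 4 PBS and 4 SP samples was hybridised to 1 Affymetrix Mouse Gene 1.1 ST array each. Both groups went through the same digestion and bead selection, and the study checked purity on stained cells in its SP samples.

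IκB kinases switch on NF-κB, a family of transcription factors that drives inflammatory genes. In the classical complex, the catalytic kinases IKKα (Chuk) and IKKβ (Ikbkb) are held by the regulatory subunit NEMO (Ikbkg) and phosphorylate IκB, which releases NF-κB to the nucleus. TBK1 (Tbk1) and IKKε (Ikbke) are close relatives best known for phosphorylating the interferon regulatory factors IRF3 and IRF7 downstream of sensors of nucleic acids and of bacterial lipopolysaccharide. They are brought to their sites of action by the scaffolds TANK (Tank), NAP1 (Azi2) and SINTBAD (Tbkbp1). Neutrophils use these kinases to convert the recognition of bacteria and cytokines into new transcription.

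Of the 8 genes, 6 were at least 2-fold higher in SP at an adjusted p of at most 0.05, none was lower, and Chuk and Ikbkb were not called. The background was high, since 21.5% of all rows were called higher and 22.6% lower in SP at that adjusted p, but at 2-fold or more 6.37% of rows were higher and 11.3% lower. The median difference of the 8 genes was 1.16 log2 units, against 0.10 over all rows. Because the genes were chosen with earlier results known, these figures are a description and not a test of the set. Here and below a difference is the SP mean minus the PBS mean of the deposited log2 signals. A log2 unit is a doubling.

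Array medians lay between 6.06 and 6.20 in PBS and between 5.78 and 5.91 in SP, a mean offset of -0.28, so that small differences move with the scaling of the arrays. Signals of 3 Y-linked genes, which served as a dim level, lay between 4.33 and 4.90, below every value of the 8 genes. Neutrophil markers were bright in both groups, with a mean over 9 measured genes of 12.04 to 12.29 in the PBS arrays and 11.45 to 12.69 in the SP arrays, and 2 of the 9 (Mmp9 and Retnlg) were called lower. Ly6g had no matched row. Markers of other lung cells moved with the groups. All 7 measured ciliated cell markers were at least 2-fold lower in SP (list mean 9.16 to 9.97 in PBS, 6.44 to 7.22 in SP), as were 5 of 7 for alveolar type 2 cells (11.79 to 12.36 and 9.69 to 11.18), 5 of 6 for alveolar type 1 cells (10.06 to 10.84 and 8.27 to 9.35), 3 of 5 for club cells (12.83 to 13.14 and 11.17 to 11.71), 5 of 8 for endothelium (10.31 to 11.32 and 8.60 to 9.79) and 6 of 6 for B cells (7.71 to 8.63 and 5.83 to 6.97). Of the alveolar macrophage markers 4 of 7 were at least 2-fold lower (8.78 to 9.40 and 7.89 to 8.37). Another of them, Chil3, was called higher, by 0.97 log2 units (adjusted p = 0.0216 by limma). Of the monocyte and interstitial macrophage markers 2 of 7 were at least 2-fold higher (7.97 to 8.77 and 8.34 to 9.49). Fibroblast (1 of 7 called, lower), T cell (1 of 6, higher), eosinophil (1 of 5, higher) and NK cell (0 of 5) lists had at most 1 call each. A smaller share of a cell type in the sample and less RNA per cell cannot be told apart here. The part of these cells in the differences of the 8 genes was not tested.

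**Figure D1:**
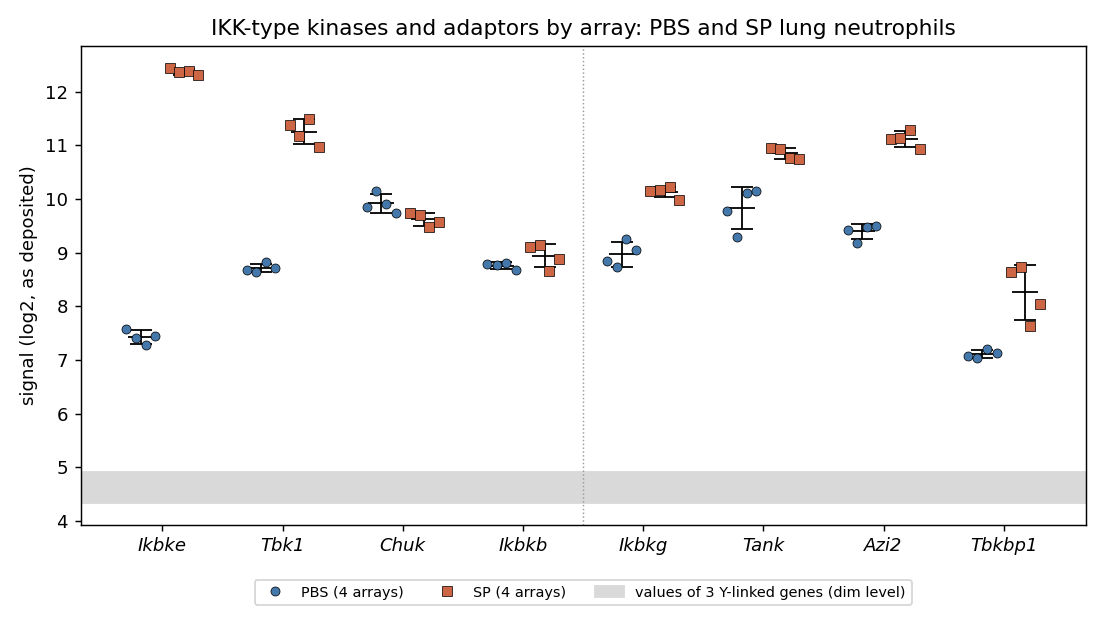
Signal (log2, as deposited) of each of the 8 genes on the 4 PBS arrays (circles) and the 4 SP arrays (squares), with the mean and SD (n = 4) as horizontal marks; kinases lie left of the dotted line and adaptors right of it, and the grey band spans the values of 3 Y-linked genes. The 4 SP values of Ikbke sit between 12.31 and 12.45, far above the PBS values of 7.28 to 7.58, whereas the groups of Ikbkb overlap.

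Ikbke, the inducible kinase of the family, showed the largest difference of the 8. Its PBS values were 7.58, 7.40, 7.28 and 7.45 in replicates 1 to 4, and its SP values were 12.45, 12.36, 12.38 and 12.31. The lowest SP array lay 4.73 log2 units above the highest PBS array, so that the gap between the groups was many times the spread within either (SD 0.13 in PBS and 0.06 in SP). The difference of 4.95 ± 0.08 (SE, n = 4 against 4) amounted to 30.9-fold (95% interval 27.1 to 35.2, adjusted p = 7.25e-08 by limma), and 0.0569% of all rows rose more.

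Tbk1, its constitutive relative, was on average 5.82-fold higher in SP (95% interval 4.81 to 7.04). PBS values of 8.68, 8.64, 8.82 and 8.72 stood against SP values of 11.38, 11.18, 11.49 and 10.97. All SP arrays lay at least 2.15 log2 units above the PBS arrays, while the SP arrays were more spread (SD 0.23) than the PBS arrays (0.08). The difference was 2.54 ± 0.12 (SE, adjusted p = 4.35e-06), and 1.24% of rows rose more.

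To show the DNA in front of the genes for the pair of kinases that rose, the bases before a RefSeq start site are given 5′ to 3′ on the strand of the gene, from the assembly GRCm38.p6, with each CpG dinucleotide in capitals. A window is the 250 bases before such a site. The last 38 bases of the Ikbke window lie inside the annotated gene, which has more than 1 transcript start, and are not shown, which leaves 212 bases at chr1:131279602-131279813. The Tbk1 stretch of 250 bases is chr10:121586795-121587044, and both are on the minus strand.
Ikbke: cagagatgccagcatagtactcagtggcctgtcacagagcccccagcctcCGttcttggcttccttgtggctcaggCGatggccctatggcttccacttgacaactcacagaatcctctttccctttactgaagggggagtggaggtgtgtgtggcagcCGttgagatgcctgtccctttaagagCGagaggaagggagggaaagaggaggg
Tbk1: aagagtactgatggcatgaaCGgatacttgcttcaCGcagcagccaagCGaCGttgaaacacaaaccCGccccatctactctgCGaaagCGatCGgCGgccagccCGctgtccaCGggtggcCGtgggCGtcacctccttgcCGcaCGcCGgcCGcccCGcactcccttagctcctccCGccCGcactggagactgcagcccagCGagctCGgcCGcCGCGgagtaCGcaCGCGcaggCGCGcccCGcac
The windows differ in CpG content, with 4 CpG in Ikbke, all within the bases shown, and 31 in Tbk1, against a median of 6 over 32851 windows of the same length from 27025 genes. Of these windows 55.6% held more CpG than that of Ikbke and 4.58% more than that of Tbk1. The Azi2 window held 28 and the Chuk window 13. The Tbkbp1 window that lies before the annotated gene held 34, above that of Tbk1, and 2.97% of windows held more. RefSeq windows were found for 7 of the 8 genes, 14 windows in all, and for Ikbkb none is shown.

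Those windows of 250 bases were searched on both strands for a κB-type motif (GGANTTNCC), an interferon response motif (GAAANNGAA) and the palindrome TTCNNNGAA, where N is any base. The κB-type motif occurred in 3.15% of all 32851 windows, the interferon response motif in 7.13% and the palindrome in 7.02%. The windows of Ikbke, Tbk1, Azi2 and Tank held none of the 3. Of 4 Ikbkg windows, the one that starts farthest upstream held 1 κB-type match on the gene's strand. Of the 7 genes with a window, only Ikbkg had such a match, and Ikbkb was not searched. The match is shown in capitals with 20 bases to each side at chrX:74393071-74393119, plus strand.
Ikbkg: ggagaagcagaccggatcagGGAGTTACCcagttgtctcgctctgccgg
The Chuk window held 1 palindrome. Of the Tbkbp1 windows, the one inside the annotated gene held 1 interferon response match. These matches describe letters in a window and nothing about binding, and no match says only that the letters are absent there.

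The kinases of the classical complex differed little between the groups. For Chuk, which encodes IKKα, PBS values were 9.86, 10.16, 9.91 and 9.75, and SP values were 9.73, 9.71, 9.47 and 9.58. All 4 SP arrays lay below all 4 PBS arrays, by a gap of only 0.014 log2 units, and over all rows the groups did not overlap in 49%. The difference of -0.29 ± 0.11 (SE) was not called after adjustment (adjusted p = 0.0535 by limma, 95% interval -0.54 to -0.05). It was -0.014 with each array centred on its median (adjusted p = 0.916), and it was called after another quantile normalization (-0.38, adjusted p = 0.0294) and without PBS replicate 4 (-0.35, adjusted p = 0.0448).

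Ikbkb encodes IKKβ, the main kinase of IκB. Its PBS values were 8.79, 8.77, 8.81 and 8.67, and its SP values were 9.10, 9.14, 8.66 and 8.89. Of the 4 SP arrays, 3 lay above every PBS array and SP replicate 3 lay below every PBS array, so the groups overlapped. The difference of 0.19 ± 0.11 (SE, 95% interval -0.07 to 0.45) was not called (adjusted p = 0.195 by limma). It passed the threshold without SP replicate 3 (0.28, adjusted p = 0.0279), with array weights (0.31, 0.00986), with centred arrays (0.47, 0.00716) and after quantile normalization (0.29, 0.0188), and under no setting did it reach 2-fold.

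**Figure D2:**
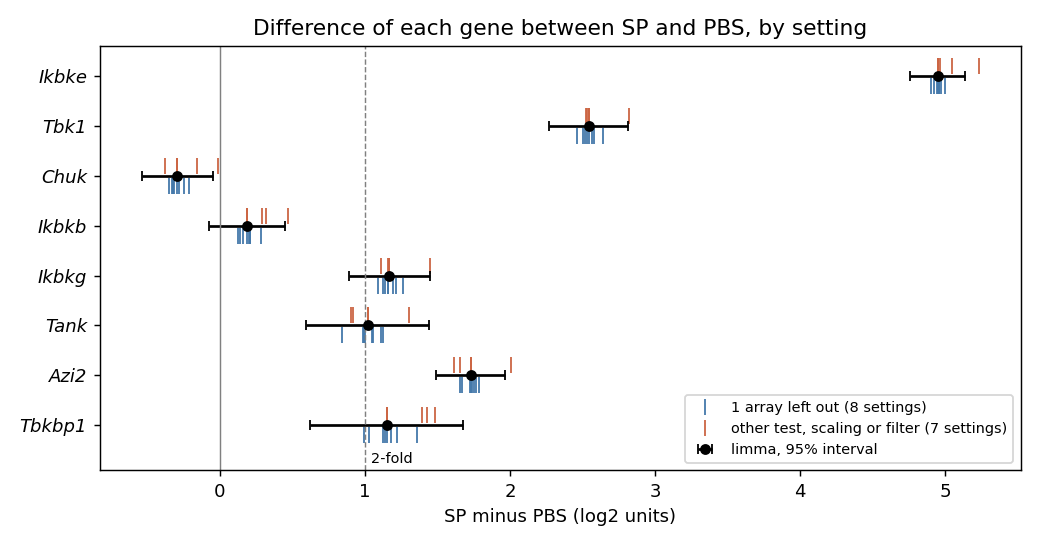
SP minus PBS difference in log2 units for each gene: the point and bar give the limma estimate with its 95% interval, ticks below it the values with 1 array left out and ticks above it the other settings; the dashed line marks 2-fold. Ikbke stays between 4.90 and 5.23 and Tbk1 between 2.46 and 2.82, whereas the ticks of Tank fall on both sides of the 2-fold line.

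Ikbkg, the NEMO subunit that the classical complex needs for its activation, was higher in SP although its catalytic partners were not called. Its PBS values were 8.84, 8.74, 9.25 and 9.04, and its SP values were 10.15, 10.16, 10.22 and 9.99. The groups were 0.73 log2 units apart. The difference was 1.17 ± 0.12 (SE), or 2.24-fold (95% interval 1.85 to 2.72, adjusted p = 0.000158), and it stayed at least 2-fold under all 15 other settings.

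The scaffolds of TBK1 and IKKε were all higher in SP, by unequal amounts. Azi2, which encodes NAP1, showed PBS values of 9.42, 9.18, 9.48 and 9.50 and SP values of 11.12, 11.14, 11.29 and 10.94. With a gap of 1.44 log2 units between the groups, it gave the third largest difference of the 8 genes, 1.73 ± 0.10 (SE), or 3.31-fold (95% interval 2.81 to 3.91, adjusted p = 1.29e-05).

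Tank, a scaffold that also binds TRAF proteins, was the most variable member in PBS. Values of 9.78, 9.29, 10.12 and 10.15 in PBS (SD 0.40) stood against 10.95, 10.93, 10.77 and 10.76 in SP (SD 0.11), with no overlap. The difference was 1.02 ± 0.19 (SE), or 2.03-fold (95% interval 1.51 to 2.72, adjusted p = 0.00278). The call at an adjusted p of 0.05 held in all 15 other settings, but the 2-fold threshold was met in 10 of them. Tank lay below it without PBS replicate 2, its lowest value (0.84), without SP replicate 1 (0.99) or SP replicate 2 (0.99), with array weights (0.92) and after quantile normalization (0.90).

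Tbkbp1, which encodes SINTBAD, was the most variable member in SP. Its PBS values were 7.08, 7.03, 7.21 and 7.12 (SD 0.08), and its SP values were 8.63, 8.74, 7.64 and 8.04 (SD 0.52). Every SP array was higher than every PBS array, by at least 0.43 log2 units. The difference was 1.15 ± 0.23 (SE), or 2.22-fold (95% interval 1.54 to 3.19, adjusted p = 0.00450). It ranged from 0.99 without SP replicate 2, just under 2-fold, to 1.36 without SP replicate 3.

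Whether the genes changed by unequal amounts was asked within arrays, where the scaling of an array cancels. For 8 pairs the log2 difference between both genes was taken on each array and compared between SP and PBS. An exact two-sided permutation test gave p = 0.0286, the smallest value that 70 arrangements allow, for 7 pairs (adjusted p = 0.0327 over the 8 pairs). Any pair whose groups do not overlap gives that p, and over all single rows the groups did not overlap in 49%. The pairs were chosen with earlier results of these data known, and other pairs of genes were not counted. Ikbke rose more than Tbk1 by 2.41 ± 0.13 log2 units (SE) and more than Ikbkb by 4.76 ± 0.13. Tbk1 rose more than Ikbkb by 2.35 ± 0.19 and more than Chuk by 2.84 ± 0.18. Within the classical complex, Ikbkg rose more than Ikbkb by 0.98 ± 0.17, and Chuk moved lower relative to Ikbkb by -0.48 ± 0.09. Among the scaffolds, Tank rose less than Azi2 by -0.71 ± 0.16. Tank and Tbkbp1 differed by -0.13 ± 0.27 (exact permutation p = 0.686), a value that ran from -0.31 to 0.0029 when single arrays were left out and was -0.58 after quantile normalization (adjusted p = 0.0571).

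**Figure D3:**
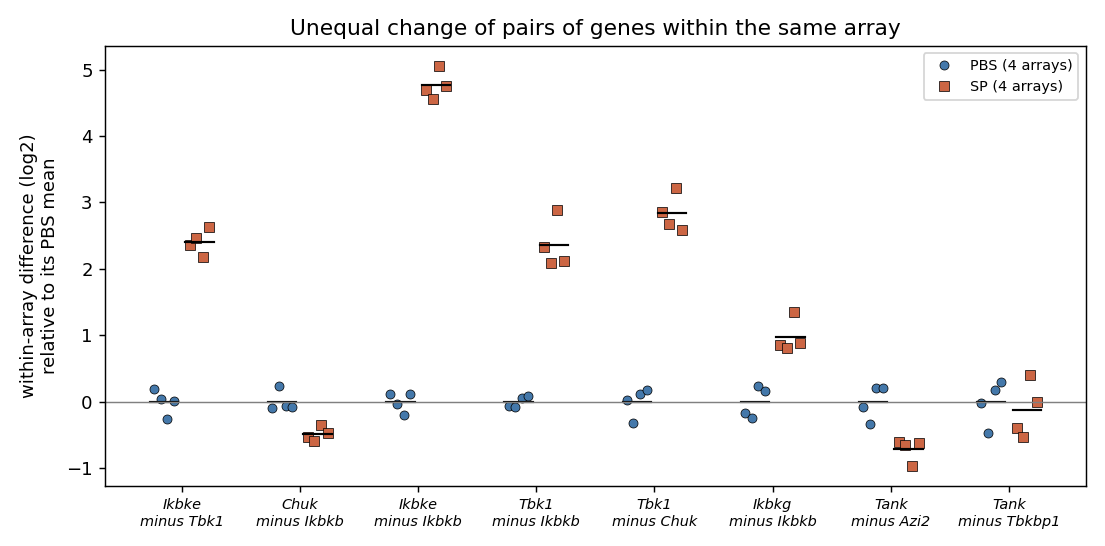
Within-array log2 difference between the 2 genes of each pair, relative to its mean in PBS, on the 4 PBS arrays (circles) and 4 SP arrays (squares), with lines at the group means. The groups are apart in 7 pairs, farthest for Ikbke minus Ikbkb (4.76), and overlap for Tank minus Tbkbp1. Over all single rows the groups did not overlap in 49%, and other pairs of genes were not counted.

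The order of the arrays within a group differed between genes. PBS replicate 2 was the lowest PBS array for Tbk1, Ikbkg, Tank, Azi2 and Tbkbp1 and the highest for Chuk. SP replicate 4 was the lowest SP array for Ikbke, Tbk1, Ikbkg, Tank and Azi2. SP replicate 3 was the highest SP array for Tbk1, Ikbkg and Azi2 and the lowest for Chuk, Ikbkb and Tbkbp1. Its array median of 5.78 was the lowest of the 8. No member value stood out from its group of 4 by Dixon's ratio.

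The rest of the pathway was described with 9 lists of genes around the kinases, which together held 75 genes, of which 71 had a row. Of these, 50 were called higher and 4 lower in SP, and 17 were not called. At 2-fold or more 34 were higher and 1 was lower. The median difference was 0.99 log2 units. These counts are a description, to be read beside the 21.5% of all rows called higher and the 22.6% called lower, and at 2-fold or more beside 6.37% and 11.3%.

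Upstream of TBK1 and IKKε, 11 of 13 sensors and adaptors were higher, 9 of them at least 2-fold (median 1.26). The RNA sensor Ifih1 was 6.79-fold higher (adjusted p = 7.42e-06) and the nucleic acid sensor Zbp1 6.64-fold (0.000383). Traf3, an adaptor that carries TBK1 to several receptors, was 5.07-fold higher (1.02e-05), and Cgas, which makes the messenger of the DNA sensing pathway, 4.06-fold (2.91e-05). Ticam1, the adaptor of TLR3, was not called (0.23, adjusted p = 0.142), but was called higher in 4 of 15 other settings. Mavs, the mitochondrial adaptor of the RNA sensors, was the 1 gene of the list that fell, 2.98-fold (0.00237).

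Of the activators of the IKK complex, 11 of 17 were higher, 4 at least 2-fold (median 0.50). These 4 were Malt1, the protease of an adaptor complex upstream of IKK (6.40-fold, adjusted p = 3.71e-06), the ubiquitin ligase Traf6 (4.55-fold, 1.07e-05), and the kinases Ripk2 (2.90-fold, 2.81e-05) and Ripk1 (2.22-fold, 0.00229). Irak4, a kinase of the Toll-like receptor pathway, was called lower (-0.66, adjusted p = 0.0298), and this call was lost under 8 of 15 other settings.

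Other scaffolds and cargo receptors split into 4 that were higher and 4 that were not called. Optn, which encodes a ubiquitin-binding partner of TBK1, was 3.38-fold higher (adjusted p = 0.000594), Tax1bp1 1.78-fold (0.00102), Riok3 1.64-fold (0.0134) and Sqstm1, which encodes the cargo receptor p62, 1.62-fold (0.000174). The differences of Nbr1 (-0.10), Erc1 (-0.12), Dok3 (0.37) and Calcoco2 (-0.35) did not pass the test (adjusted p between 0.154 and 0.496). The signs of Nbr1 and Erc1 turned with centred arrays, Erc1 was called higher after quantile normalization, and Calcoco2, which lay near the dim level (4.91 in PBS and 4.55 in SP), was called lower with the replicate number as a block (adjusted p = 0.0455) and without SP replicate 2 (-0.50, 0.0495). The Hsp90 chaperones that fold IKK-type kinases were lower, Hsp90aa1 by -0.97 log2 units (adjusted p = 0.000762) and Hsp90ab1 by -0.88 (0.00161), and their co-chaperone Cdc37 was not called (-0.11, 0.367), with a sign that turned with centred arrays.

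Among the substrates, all 8 genes for NF-κB subunits and IκB proteins were higher, 7 of them at least 2-fold (median 1.57). The NF-κB subunit Relb was 8.53-fold higher (adjusted p = 1.95e-05), the inhibitor Nfkbie 7.87-fold (0.00107), Nfkb2 4.54-fold (4.26e-05) and the inhibitor Nfkbib 3.22-fold (0.000289). Of the interferon regulatory factors, Irf7 was 5.21-fold (0.00101) and Irf5 4.98-fold (6.14e-05) higher, while Irf3 was not called (0.13, 0.489). Of 6 substrates outside both families, 4 were at least 2-fold higher, among them the kinase Map3k8 (5.64-fold, adjusted p = 7.38e-05). Optn and Cyld are also among these, and each is counted on another of the lists as well. Akt1 and Rps6kb1 were not called (-0.07 and -0.0063, adjusted p = 0.539 and 0.955), and each was called in 1 of 15 other settings.

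Of 9 measured brakes on these kinases, 7 were higher and none lower, 4 of them at least 2-fold (median 0.99). Tnip1, a ubiquitin-binding inhibitor, was 12.1-fold higher (adjusted p = 4.12e-06), the ubiquitin-editing enzyme Tnfaip3, also known as A20, 6.24-fold (0.00543; a log2 difference of 2.64, and of 2.03 without PBS replicate 2), Dtx4, a ligase for TBK1, 3.95-fold (3.33e-06) and the deubiquitinase Cyld 2.04-fold (0.00115). The genes that IRF3 and IRF7 are known to drive had the largest median, 3.71 over 6 measured genes, with 5 at least 2-fold higher. Ifit2 was 49.0-fold, Cxcl10 26.8-fold, Ifit1 13.9-fold and Ccl5 12.4-fold higher (adjusted p from 5.86e-07 to 0.000166), whereas Ifnb1, which encodes interferon beta, was not called (4.36 ± 0.10 in PBS and 5.34 ± 1.11 in SP, SD, n = 4, adjusted p = 0.122).

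**Figure D4:**
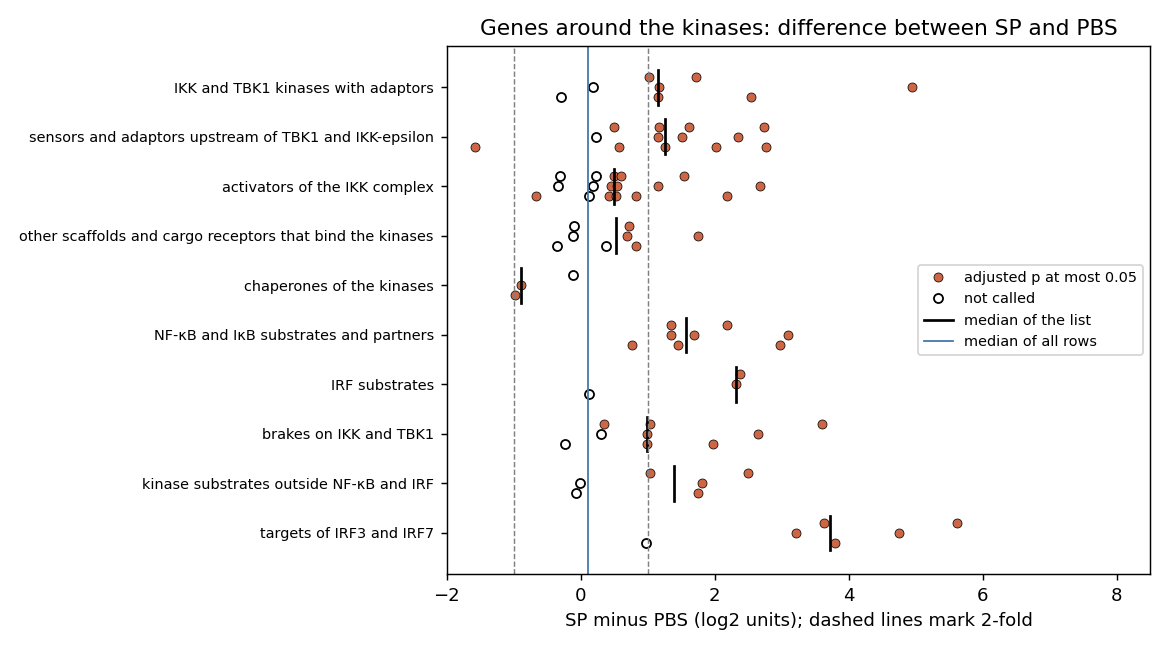
SP minus PBS difference in log2 units of the 8 genes (top) and of each measured gene of 9 pathway lists; filled points passed an adjusted p of 0.05, open points did not, black lines are list medians and the blue line is the median of all rows (0.10). The 8 NF-κB and IκB genes are all filled and right of 0, and the chaperones lie left of it, Cdc37 only without centring of the arrays.

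Genes with the profile most like that of Ikbke or Tbk1 were sought among all rows with a symbol, by the root mean square of the difference over the 8 arrays after each row was set to its own PBS mean. Nearest to Ikbke were Fcrlb (0.18 log2 units), 4930599N23Rik (0.19), the immunoglobulin receptor Fcgr1 (0.20), Mfsd7a (0.20) and the row of the microRNA precursor Mir155 (0.25). Fcgr1 had means of 6.57 in PBS and 11.60 in SP. Nearest to Tbk1 were the interferon-induced Ifi35 (0.09), Mir140 (0.12), Olfr432 (0.13), the cytokine signalling inhibitor Cish (0.14) and Zup1 (0.14). Ifi35 had means of 8.91 in PBS and 11.42 in SP. Fcrlb (4.63) and Olfr432 (4.44) had PBS means within the dim range. This measure describes likeness on these 8 arrays, and the step between the groups makes most of it.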

How the data were processed

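Messenger RNA of 8 neutrophil samples, 4 PBS and 4 SP by their titles, was measured on 1 array each. The deposited values are log2 signals, which the authors made by RMA. Signals were corrected for background, for GC content and for probe sequence, then quantile normalized, and probes of a gene were summarised by median polish. Affymetrix Expression Console and Partek are named in the processing notes, and a genome build is not given in the sources used here. Such values are relative within an array, so a change in total RNA cannot be read from them, and bright signals may be compressed. Rows were named by unversioned RefSeq accession from the RefSeq table of GRCm38.p6, which gave 19915 of 24625 rows a symbol. For a symbol on several rows, the one with the highest mean over all arrays was used, and each of the 8 genes had 1 row.

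All rows were fitted with limma (version 3.58.1, R 4.3.3; lmFit and eBayes, two-sided, no covariates), with Benjamini-Hochberg adjustment over the 24625 rows and thresholds of 0.05 and, as in the methods, 2-fold. The 95% intervals are not adjusted. Pairs of genes were compared within arrays by an exact permutation test over 70 arrangements. The fit and the permutation were tested on simulated data first. Members, pathway lists, marker lists and pairs were chosen with earlier results of these data known, and the motifs after the values had been seen. Of each pathway list, the text names the genes called at 2-fold or more, at most 4 by size, and all scaffolds and chaperones, except for 1 gene that is not reported here. Mavs, Irak4, Ticam1, Irf3, Ifnb1, Akt1 and Rps6kb1 fall outside this rule and were named after their values had been seen. The labels do not tie samples to animals, while the paper describes each sample as coming from a mouse, and p-values measure the spread between these samples. The number of arrays limits the precision. No scanner files were used here, so background correction was not varied. Figures were drawn with matplotlib 3.10.9 under Python 3.11.15.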

Additional observations from a re-analysis of the deposited data

Results flagged for a closer look

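Among the 8 genes and 42 genes of the lists around them, 100 groups of 4 arrays were checked for a value far from the other 3 by Dixon's ratio at the 95% level, and 7 groups had one. Chance gives about 1 in 20 groups. None of the 7 was in a member. In PBS replicate 2, Ifih1 lay at 8.96 against 9.36 for the nearest PBS array, Irf5 at 8.09 against 8.88, Cxcl10 at 6.96 against 9.19, and Erc1 at 7.45 against 7.17. In SP replicate 3, Riok3 lay at 12.24 against 11.66 for the nearest SP array, Tnfaip3 at 13.17 against 12.88, and Erc1 at 6.86 against 7.19. PBS replicate 2 thus accounted for 4 and SP replicate 3 for 3 of the values. Without PBS replicate 2 the difference of Cxcl10 was 4.16 in place of 4.75, and without SP replicate 3 that of Riok3 was 0.56 in place of 0.71.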

How the results depend on the processing

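Each difference was recomputed under 7 other tests, scalings or filters and without each of the 8 arrays. Ikbke, Tbk1, Ikbkg, Azi2, Tank and Tbkbp1 were called higher in all 15 settings. Chuk was called after quantile normalization (-0.38) and ranged from -0.35 to -0.21 without single arrays, with a call without PBS replicate 4. Ikbkb was called with array weights (0.31), with centred arrays (0.47) and after quantile normalization (0.29), and ranged from 0.12 to 0.28 without single arrays, with a call without SP replicate 3. Tank against Tbkbp1 ranged from -0.31 to 0.0029 without single arrays, and changed sign without SP replicate 2, while the other 7 pairs kept their direction in every setting run. With 3 arrays against 4 the exact test cannot go below 0.0571, so pairs without 1 array are values with no test. Of genes that are no members, the sign turned for Nbr1 with array weights (0.0060) and centred arrays (0.18), for Erc1 with centred arrays (0.16) and after quantile normalization (0.31), for Cdc37 with centred arrays (0.18), for Akt1 with centred arrays (0.21), and for Rps6kb1 with array weights (0.0046), centred arrays (0.27), quantile normalization (0.15) and among the values without single arrays (-0.059 to 0.051). Of genes not called, Irf3 (0.41), Ifnb1 (1.25), Ticam1 (0.51), Dok3 (0.65) and Rps6kb1 (0.27) passed the threshold with centred arrays, and Irf3 (0.29), Ticam1 (0.62), Erc1 (0.31) and Akt1 (-0.27) after quantile normalization. Ticam1 also passed with array weights (0.26) and without SP replicate 3 (0.32). Mavs was lower in all 15 settings. Centring raised each difference by 0.28 log2 units, and 14219 rows were then called higher and 4036 lower, against 5306 and 5554. With dim rows left out, so that fewer rows were tested, 2971 were called higher, and without single arrays between 3528 (without PBS replicate 1) and 5301. Irak4 lost its call under the methods' one-way ANOVA, the replicate block, centred arrays and 5 of the 8 settings without 1 array (-0.69 to -0.54 in those 5). SP and PBS samples share replicate numbers. Their deviations from the group means correlated between -0.27 and 0.35 across rows for equal numbers, and between -0.36 and 0.28 for unequal numbers. The highest value was that of replicate 3 in both groups. So few correlations cannot tell whether the numbers pair the samples. With the replicate block 4477 rows were called higher and 5365 lower, all 8 members kept their side of the threshold, Irak4 lost its call and Calcoco2 gained one (-0.35). Paired by number, the exact sign-flip test of a pair of genes cannot go below 0.125.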
